A study of Mus musculus with 12 samples.

Results

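The comparison described here is the response of WT mouse follicular B cells to 4 h of culture. It was drawn from a set of 12 RNA sequencing libraries, of which 6 hold WT cells: 3 frozen directly after the sort (WT 0 h) and 3 frozen after 4 h in complete RPMI medium with serum and no added stimulus (WT 4 h). Genes were taken by their symbol, and only the 12837 symbols listed in both the 0 h and the 4 h count table could be compared. All mice were male adults, and the cells came from the spleen. WT cells are *Gpr174*+/Y, and the other 6 libraries hold *Gpr174*-/Y cells (KO) at the same times, in which the coding exon of this X-linked receptor gene was exchanged for tdTomato. The labels give the sorted cells as CD21/35- and CD23+. The 4 h cells were not stimulated through the B cell receptor, and no time between 0 h and 4 h was used here.

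Follicular B cells are the recirculating, resting B cells of the spleen and lymph nodes. They hold high levels of MHC class II and of coreceptors such as CD22, CD23 and CD21/35, and they change these when antigen, T cell help or other signals arrive. GPR174 is a receptor that couples to the G protein Gs, which activates adenylyl cyclase. The cAMP formed activates protein kinase A and, through it, the transcription factor CREB, whose preferred DNA site is the cAMP response element (CRE). CREB targets include phosphodiesterases that break cAMP down, transcription factors of the NR4A family and the repressor CREM.

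The WT libraries held 6098941 to 11618787 counts, and the row for ribosomal RNA precursor, *Rn45s*, took 7.78% to 11.3% of them. Values below are CPM, counts scaled to a common library size by TMM. They measure a share of a library and not RNA per cell. Of the variance over the 500 most variable genes in the 6 WT libraries, the first principal component took 66.6% and placed the 3 uncultured libraries (-20.8 to -18.3) apart from the 3 cultured ones (17.2 to 22.4). The second took 13.2% and placed replicate 1 at 12 (0 h) and 12.3 (4 h) against -8.58 to -3.86 for the other libraries, so replicate 1 stood apart at both times. Counts without this replicate are given where they differ by over 1.5 times. Whether the 0 h and 4 h libraries were prepared in the same batch is not given in the sources used here, so a batch difference between them and culture cannot be told apart. *Gpr174* itself had 149.6, 149.5 and 157 CPM in the WT 0 h libraries and 164, 169 and 153 CPM in the WT 4 h libraries, and KO libraries held 73.4 to 118 CPM. The rows count whole genes, and which part of the gene these KO reads cover was not tested.

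The cell type label was checked against its markers. Of 7 mature B cell markers tested, 4 fell, 3 of them over 2-fold, and 1 rose. Their summed level was 7913 to 8258 CPM in the WT 0 h libraries and 5392 to 5629 CPM in the WT 4 h libraries. The B lineage markers *Cd79a* and *Cd79b* were each detected at high level at both times, and *Fcer2a*, which encodes CD23, was at 1570, 1480 and 1546 CPM at 0 h and 516, 535 and 533 CPM at 4 h. *Cr2*, which encodes CD21/35, was at 1035, 1054 and 1122 CPM at 0 h and 129, 180.5 and 167 CPM at 4 h, so its mRNA was abundant at 0 h in cells labelled CD21/35-. The rows *Ighm* and *Ighd* were not in either table. Markers of T and NK cells summed to 5.74 to 17.8 CPM over 6 genes in the 6 libraries, with 0 called in either direction by edgeR, by DESeq2 or at an unadjusted p under 0.05. Erythroid and platelet markers summed to 883 to 1336 CPM, mostly from the *Beta-s* globin row, and 0 of the 6 tested were called by edgeR or DESeq2 (1 fell at an unadjusted p under 0.05). Macrophage and monocyte markers moved with time, and their values stand beside the genes they touch below.

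In the 11572 genes tested, 3830 (33.1%) were differentially expressed genes (DEGs) between WT 4 h and WT 0 h at an adjusted p under 0.05 by edgeR's quasi-likelihood test with Benjamini-Hochberg adjustment. Of these, 1750 (15.1% of the genes tested) rose and 2080 (18.0%) fell. These shares are the background for every list count below. The changes were mostly small: the median absolute log2 fold change was 0.43 among genes that rose and 0.53 among genes that fell, with a median standard error of 0.12. Over 2-fold, 266 genes rose (2.30% of the genes tested) and 454 fell (3.92%), and over 4-fold these counts were 64 and 75. In 4730 genes (40.9%) the 3 WT 4 h values did not overlap the 3 WT 0 h values, and 3571 of these were DEGs. Genes raised over 2-fold together went from 0.534% to 0.550% of reads in the WT 0 h libraries to 1.61% to 1.67% in the WT 4 h libraries, and genes lowered over 2-fold went from 3.98% to 4.04% down to 1.56% to 1.76%. The split by direction depended on scaling. Scaling by library totals alone moved the all-gene median from 0.00 to 0.11 on the log2 scale. It left 3001 genes raised and 1500 lowered. Log2 fold changes are therefore given relative to the TMM-scaled median of all genes, with the standard error after ±. The standard errors are approximate: each is the absolute log2 fold change divided by the square root of the test's F statistic.

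**Figure D1:**
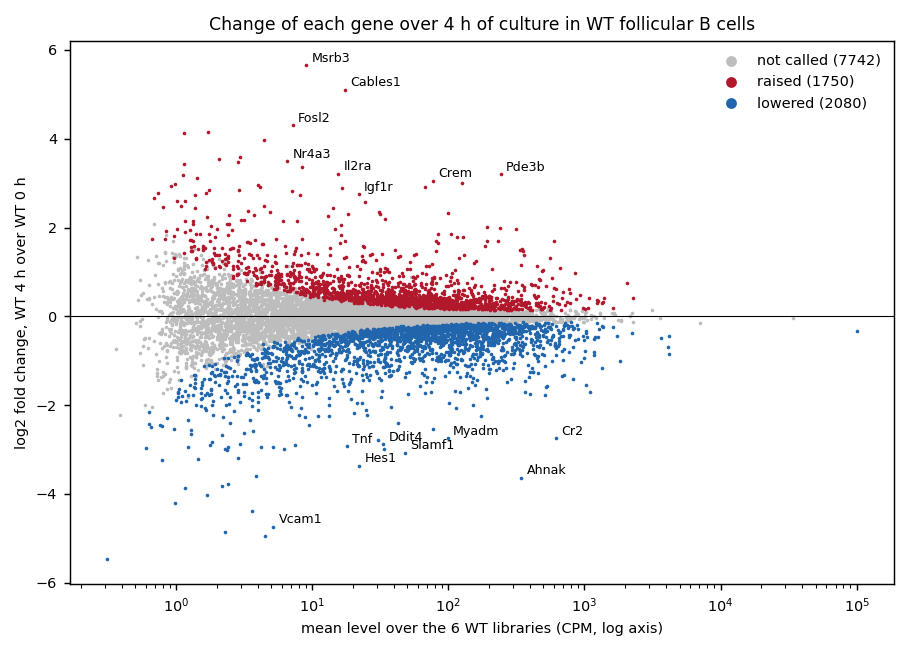
Each point is 1 of the 11572 genes tested, placed by its mean CPM over the 6 WT libraries (log axis) and by its log2 fold change from WT 0 h to WT 4 h. The 1750 genes that rose are red, the 2080 that fell are blue, and the labelled genes with large changes lie from about 5 CPM (*Vcam1*, *Nr4a3*) to well over 100 CPM (*Ahnak*, *Cr2*, *Pde3b*).

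Large changes were most frequent at low expression. In the lowest tercile of genes by mean level (up to 14.2 CPM), 387 rose and 446 fell, 182 and 267 of them over 2-fold. In the highest tercile (from 54.5 CPM), 773 rose and 1079 fell, but only 40 and 95 over 2-fold. Among genes with a unique match in GENCODE, the median genomic span was 31542 bases for genes raised over 2-fold, 23139 bases for those lowered over 2-fold and 21002 bases for genes not called. The median exonic length was 4636, 3900 and 4248 bases in the same order, so the groups differed more in span than in exonic length. These medians are descriptions, and genes are not independent replicates.

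Of the 15 genes with the largest rise among those reaching 10 CPM, some were close to absent at 0 h. *Msrb3*, a methionine sulfoxide reductase (chr10:120781096-120899101, minus strand, GRCm38), was at 0.338, 0 and 0.625 CPM in the WT 0 h libraries and 13.4, 18.9 and 21.3 CPM in the WT 4 h libraries (log2 fold change 5.65 ± 0.41, adjusted p = 4.96e-10). *Cables1*, an adaptor for cyclin-dependent kinases, was at 1.13, 1.12 and 0.715 CPM at 0 h and 34.4, 28.9 and 37.8 CPM at 4 h (log2 fold change 5.10 ± 0.23). Both were barely detected in uncultured cells and clearly present in all 3 cultured libraries. *Il2ra*, the interleukin 2 receptor alpha chain CD25, was at 3.49, 2.35 and 3.13 CPM at 0 h and 32.1, 28.6 and 23.3 CPM at 4 h (log2 fold change 3.21 ± 0.18, adjusted p = 9.01e-12). *Igf1r*, the receptor for insulin-like growth factor 1, was at 5.29, 4.82 and 6.699 CPM at 0 h and 38.9, 43.6 and 32.4 CPM at 4 h (log2 fold change 2.75 ± 0.18). Absence of overlap between the times, found in 40.9% of all genes tested, was a condition for entry to this group of 15.

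Transcription factors made up several of the largest rises. *Fosl2*, an AP-1 subunit, was at 0.451, 0.448 and 1.07 CPM in the WT 0 h libraries and 14.04, 11.4 and 15.7 CPM in the WT 4 h libraries (log2 fold change 4.30 ± 0.33, adjusted p = 1.30e-09). *Nr4a3*, an orphan nuclear receptor, was at 1.24, 0.785 and 1.16 CPM at 0 h and 11.3, 9.38 and 15.4 CPM at 4 h (log2 fold change 3.49 ± 0.36). *Ets2*, a factor of the ETS family, was at 39.9, 21.8 and 23.2 CPM at 0 h and 261, 201 and 212 CPM at 4 h (log2 fold change 3.00 ± 0.14), with the highest uncultured and the highest cultured value both in replicate 1. The remaining genes among the 15 largest rises, of mixed function, were *Crem* (3.05 ± 0.13), *Pde3b* (3.20 ± 0.09), *Litaf* (2.91 ± 0.12), *Hspa1a* (2.90 ± 0.42), *Asph* (2.72 ± 0.29), *Gfod1* (2.59 ± 0.16), *6330403A02Rik* (3.36 ± 0.26) and *Gm14137* (2.82 ± 0.34), all as log2 fold changes. *Hspa1a* shares most of its sequence with *Hspa1b*, so the split of reads between the pair is uncertain, and it was at 0.788, 2.802 and 7.503 CPM at 0 h and 43.2, 19.1 and 25.7 CPM at 4 h, with scattered values at 0 h.

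The 15 largest falls at 10 CPM or more, chosen under the same condition of no overlap, included cytokines, receptors and a cytoskeletal scaffold. *Ahnak*, which encodes a very large scaffold protein (chr19:8989284-9076914, plus strand, GRCm38), was at 591, 636 and 685 CPM in the WT 0 h libraries and 49.05, 54.7 and 49.7 CPM in the WT 4 h libraries (log2 fold change -3.64 ± 0.07, adjusted p = 7.12e-19), the largest fall of any gene over 100 CPM. *Slamf1*, the receptor CD150, was at 81.1, 92.03 and 85.2 CPM at 0 h and 9.36, 12.04 and 9.49 CPM at 4 h (log2 fold change -3.07 ± 0.12). *Hes1*, a repressor induced by Notch, was at 38.97, 40.7 and 41.2 CPM at 0 h and 3.07, 4.38 and 4.11 CPM at 4 h (log2 fold change -3.37 ± 0.15, adjusted p = 1.27e-13). In each of these 3 genes the replicates of a time lay close together and far from those of the other time.

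*Tnf* and *Lta*, neighbouring genes for tumor necrosis factor and lymphotoxin alpha, fell together. *Tnf* was at 32.3, 36.4 and 26.9 CPM at 0 h and 4.36, 1.25 and 6.22 CPM at 4 h (log2 fold change -2.92 ± 0.26). *Lta* was at 50.9, 54.9 and 54.1 CPM at 0 h and 6.78, 8.29 and 7.91 CPM at 4 h (log2 fold change -2.79 ± 0.11). *Ddit4*, an inhibitor of the growth kinase complex mTORC1, was at 63.6, 53.7 and 57.7 CPM at 0 h and 9.68, 6.57 and 7.59 CPM at 4 h (log2 fold change -2.88 ± 0.15), and *Lifr*, the receptor for leukemia inhibitory factor, was at 17.2, 9.98 and 12.2 CPM at 0 h and 2.58, 1.72 and 1.16 CPM at 4 h (log2 fold change -2.90 ± 0.28). The others were *Tmem154* (-2.99 ± 0.13), *Igsf9* (-2.99 ± 0.27), *Cr2* (-2.75 ± 0.09), *Myadm* (-2.75 ± 0.09), *Fam55d* (-2.55 ± 0.11), *Zfp385a* (-2.44 ± 0.18) and *Fam55b* (-2.41 ± 0.12).

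*Vcam1*, the gene with the largest fall among those at 10 CPM or more, is also a marker of splenic macrophages. It was at 12.8, 9.98 and 7.24 CPM in the WT 0 h libraries and 0.161, 0.156 and 0.633 CPM in the WT 4 h libraries (log2 fold change -4.74 ± 0.41, adjusted p = 7.43e-09). Of 8 macrophage and monocyte markers tested, 6 fell and 0 rose (0 rose by DESeq2 or at an unadjusted p under 0.05 as well), and their summed level went from 72.1 to 84.6 CPM at 0 h to 28.1 to 44.6 CPM at 4 h. *Slc40a1*, the iron exporter ferroportin, was at 5.41, 6.05 and 7.41 CPM at 0 h and 1.13, 0.782 and 1.16 CPM at 4 h (log2 fold change -2.59 ± 0.55). *Csf1r*, the receptor for macrophage colony-stimulating factor, was at 12.5, 6.95 and 8.04 CPM at 0 h and 2.905, 2.97 and 2.32 CPM at 4 h (log2 fold change -1.76 ± 0.30). *Lyz2*, *Ly6c2* and *Cd5l* fell too, while *Emr1* (-0.29 ± 0.38) and *Cd68* (-0.19 ± 0.16) were not called. In bulk libraries, fewer cells of a type and less RNA per cell cannot be told apart, and the part of contaminating cells in these falls was not tested.

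**Figure D2:**
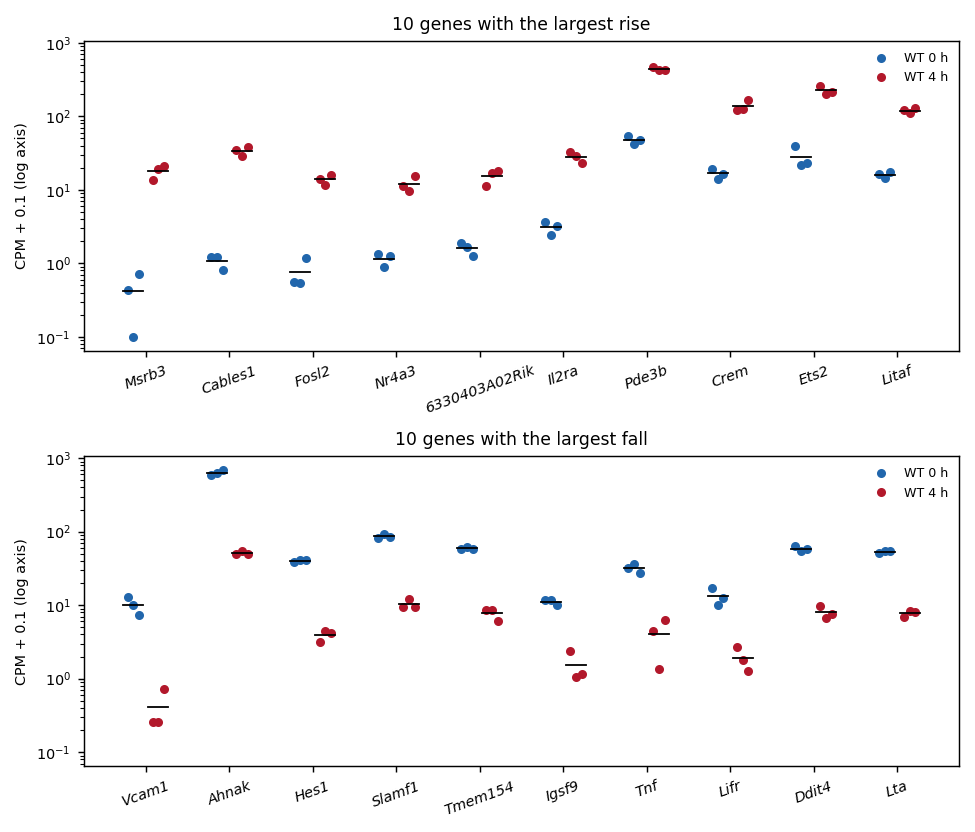
Level in each WT library of the 10 genes with the largest rise and the 10 with the largest fall among those at 10 CPM or more in the higher group, as CPM + 0.1 on a log axis. Blue points are the 3 WT 0 h libraries, red points the 3 WT 4 h libraries and bars their means. The red and blue points do not overlap in any of the 20 genes, because this was a condition for choosing them.

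Ranked by the change in CPM rather than in fold, other genes led. *Pou2af1*, the B cell coactivator OBF-1, gained most and was at 1420, 1503 and 1670 CPM in the WT 0 h libraries and 2435, 2642 and 2713 CPM in the WT 4 h libraries (log2 fold change 0.76 ± 0.06, adjusted p = 1.90e-09). *Gdi2*, a regulator of Rab GTPases, was at 272, 283 and 299 CPM at 0 h and 946, 876 and 931 CPM at 4 h (log2 fold change 1.69 ± 0.06). *Satb1*, a chromatin organizer, was at 315, 340.4 and 318 CPM at 0 h and 846, 798 and 765 CPM at 4 h (log2 fold change 1.31 ± 0.05). *Stat4*, a mediator of cytokine signals, was at 128, 135 and 122 CPM at 0 h and 482, 510.2 and 503 CPM at 4 h (log2 fold change 1.96 ± 0.06). *Serinc3* (0.41 ± 0.05), *Ssh2* (0.99 ± 0.05), *Fam107b* (1.09 ± 0.06), *Stk17b* (0.42 ± 0.05) and *Neurl3* (1.04 ± 0.05), with their log2 fold changes, were the other genes of this group. Losses were larger. *Macf1*, which links actin and microtubules, was at 5495, 5648 and 5004 CPM at 0 h and 3285, 3217 and 2516 CPM at 4 h (log2 fold change -0.84 ± 0.07). *Actb*, beta actin, was at 5134, 4984 and 5136 CPM at 0 h and 3481, 2776 and 3166 CPM at 4 h (log2 fold change -0.70 ± 0.06). *Ptprc*, the phosphatase CD45, was at 2496, 2383 and 2413 CPM at 0 h and 1175, 1222 and 1255 CPM at 4 h (log2 fold change -0.997 ± 0.05). In each of these 3 genes every cultured value was below every uncultured one. *Rn45s* lost most reads of all, at -0.33 ± 0.10 on the log2 scale (adjusted p = 0.0123), but its call was lost without WT 0 h replicate 1 (-0.28, adjusted p = 0.060), without WT 4 h replicate 2 (-0.22, adjusted p = 0.081) and without WT 4 h replicate 3 (-0.26, adjusted p = 0.067).

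Genes known to respond to cAMP formed the group with the highest median among the lists with 10 or more tested members. This rank is a description, because the list was chosen with earlier results of these data known. The study had named *Nr4a1* and phosphodiesterases in it as raised in culture. Of 20 listed genes 18 were tested, 13 rose, 8 of them over 2-fold, and 3 fell, against 15.1% and 18.0% of all genes. Their median log2 fold change was 0.69 beside 0.00 for all genes. *Pde3b*, a cAMP phosphodiesterase, was at 53.2, 42.5 and 48.05 CPM in the WT 0 h libraries and 469, 422 and 426 CPM in the WT 4 h libraries (log2 fold change 3.20 ± 0.09, adjusted p = 2.81e-16). *Pde4d*, another, was at 9.91, 10.7 and 9.91 CPM at 0 h and 44.05, 56.5 and 55.5 CPM at 4 h (log2 fold change 2.36 ± 0.14). *Pde4b*, the more abundant family member, was at 321, 303 and 346 CPM at 0 h and 636, 662 and 671 CPM at 4 h (log2 fold change 1.02 ± 0.06). *Nr4a1*, which encodes NUR77, was at 34.02, 26.7 and 32.4 CPM at 0 h and 93.1, 66.3 and 83.5 CPM at 4 h (log2 fold change 1.38 ± 0.12). *Plk2*, a polo-like kinase, was at 19.04, 6.501 and 6.79 CPM at 0 h and 51.6, 45.98 and 60.3 CPM at 4 h (log2 fold change 2.31 ± 0.27). All 3 cultured values of each of these 5 genes were above all uncultured ones. *Sik1* (0.73 ± 0.08), *Per1* (0.41 ± 0.08), *Irs2* (0.39 ± 0.11) and *Btg2* (0.25 ± 0.07) rose by less. *Rgs2*, at 0.64 ± 0.20, was called, but not without WT 0 h replicate 2 (0.52, adjusted p = 0.082), WT 0 h replicate 3 (0.47, adjusted p = 0.099) or WT 4 h replicate 1 (0.55, adjusted p = 0.060). *Nr4a2*, the remaining NR4A factor, was listed in the 4 h table only, at 7.58, 7.03 and 7.06 CPM in the WT libraries.

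Other members of the list fell or did not pass the test. *Fos*, an AP-1 subunit, was at 21.4, 7.73 and 10.4 CPM at 0 h and 4.03, 2.502 and 4.43 CPM at 4 h (log2 fold change -1.82 ± 0.32, adjusted p = 1.22e-04), so its change was opposite to that of *Fosl2*. *Pde4a* was at 16.1, 17.04 and 19.8 CPM at 0 h and 10.2, 12.5 and 10.9 CPM at 4 h (log2 fold change -0.66 ± 0.15). *Ier2* fell by less (-0.32 ± 0.10, adjusted p = 0.0169) and lost its call in some fits that left out libraries (without WT 0 h replicate 1 -0.22, adjusted p = 0.10; without WT 4 h replicate 2 -0.24, adjusted p = 0.093). *Junb* was at 50.01, 39.2 and 38.6 CPM at 0 h and 43.7, 35.4 and 48.2 CPM at 4 h (log2 fold change 0.01 ± 0.12, adjusted p = 0.981). *Dusp1* was at 41, 20.96 and 19.7 CPM at 0 h and 25.2, 20.02 and 26.2 CPM at 4 h (log2 fold change -0.18 ± 0.20, adjusted p = 0.537), with overlapping values in both genes.

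Promoter windows from 250 bases before to 50 bases after each annotated start (RefSeq, GRCm38.p6) are shown for cAMP-responsive genes changed over 2-fold, to show which carry the CRE or its shorter core. Both strands were searched. Capitals mark the full CRE (TGACGTCA) in *Plk2* and the core (TGACG on either strand, read as CGTCA on the other) in the remaining genes. Positions count from the start as +1.
*Plk2*, chr13:110394962-110395009, plus strand: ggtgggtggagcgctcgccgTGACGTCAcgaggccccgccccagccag
*Nr4a3*, chr4:48045055-48045182, plus strand: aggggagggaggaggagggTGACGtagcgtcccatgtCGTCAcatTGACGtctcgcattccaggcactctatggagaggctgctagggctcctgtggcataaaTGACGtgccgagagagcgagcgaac
*Nr4a1*, chr15:101266596-101266830, plus strand: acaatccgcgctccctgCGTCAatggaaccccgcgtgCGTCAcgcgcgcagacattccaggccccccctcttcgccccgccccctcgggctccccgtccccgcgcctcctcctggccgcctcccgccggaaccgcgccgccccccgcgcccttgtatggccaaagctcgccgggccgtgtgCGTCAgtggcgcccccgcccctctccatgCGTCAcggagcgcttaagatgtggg
*Pde4b*, chr4:102421501-102421545, plus strand: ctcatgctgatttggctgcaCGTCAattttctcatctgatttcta
*Fos*, chr12:85473741-85473848, plus strand: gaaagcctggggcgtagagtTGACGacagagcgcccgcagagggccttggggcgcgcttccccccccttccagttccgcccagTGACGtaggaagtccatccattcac
The *Plk2* site starts at position -62. *Nr4a1* and *Nr4a3* hold 4 core matches each, and *Fos*, which fell, holds 2. The windows of *Pde4d* and *Fosl2* hold none of either, although both genes rose over 2-fold. *Crem* and *Pde3b* had no window in the table. A match in these letters is a description and not a site shown to be bound.

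The same letters were counted in all windows. The full CRE was in 8 of 302 windows of genes raised over 2-fold (2.65%, 95% exact binomial interval 1.15% to 5.15%), 2 of 436 of genes lowered over 2-fold (0.459%, 0.0556% to 1.65%), 3.42% of windows of genes tested and not called, and 1.79% of all 32851 windows. The core TGACG, which the full CRE contains, was in 26.5% (21.6% to 31.8%), 16.3% (12.9% to 20.1%), 32.4% and 20.8% in the same order. The core was thus more frequent in windows of genes raised over 2-fold than in those of genes lowered over 2-fold, and less frequent than in those of genes not called. Over all called genes, whatever their fold, the order was another: the core was in 36.5% of windows of raised genes (34.3% to 38.8%), above the 32.4% (31.4% to 33.5%) of genes not called, and in 25.1% of windows of lowered genes. The full CRE was in 4.05% and 1.496% of windows of all raised and all lowered genes. The AP-1 letters TGANTCA were in 7.62% (raised over 2-fold), 9.86% (lowered over 2-fold) and 4.36% (not called) of windows, the ETS letters CCGGAAG in 8.28%, 6.19% and 20.7%, and TATAAA in 9.60%, 10.1% and 6.93%. CACGTG was in 5.63%, 7.57% and 10.8%, GAANNTTC in 4.64%, 5.73% and 5.55%, and GGGACTTTC in 0.331%, 0.917% and 0.361%. Several windows can belong to 1 gene, so the intervals cover counting error only and are narrower than they would be for independent genes.

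Of 18 tested components of the Gs pathway, 4 rose and 6 fell (15.1% and 18.0% of all genes tested), all by less than 2-fold. The median log2 fold change was -0.09 (0.02 with library totals alone). *Ptger4*, a Gs-coupled prostaglandin E2 receptor, was at 19.6, 16.7 and 15.3 CPM in the WT 0 h libraries and 35.2, 22.4 and 29.1 CPM in the WT 4 h libraries (log2 fold change 0.75 ± 0.16). *Prkar1a*, a regulatory subunit of protein kinase A, was at 332, 310.1 and 339 CPM at 0 h and 575, 502 and 535 CPM at 4 h (log2 fold change 0.72 ± 0.07). *Sik3* rose by a like amount (0.76 ± 0.06). *Adcy7* (-0.39 ± 0.06), *Crtc3* (-0.36 ± 0.09) and *Creb1* (-0.35 ± 0.05) fell. *Prkar1a* carries the full CRE in a window at position -49, shown because it is a pathway gene with the complete motif, in capitals.
*Prkar1a*, chr11:109650870-109650937, plus strand: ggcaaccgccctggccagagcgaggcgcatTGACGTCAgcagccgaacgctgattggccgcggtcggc

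Immediate early genes, which respond within minutes to many signals, split. Of 25 tested, 8 rose and 13 fell (15.1% and 18.0% of all genes tested), with a median of -0.32 (-0.22 with library totals alone). *Dusp6*, a phosphatase of ERK kinases, was at 34.5, 35.8 and 37.1 CPM in the WT 0 h libraries and 9.84, 10.8 and 12.3 CPM in the WT 4 h libraries (log2 fold change -1.69 ± 0.13). *Klf4* (-1.26 ± 0.22), *Jun* (-1.15 ± 0.12) and *Egr3* (-1.04 ± 0.13) fell as well, and so did *Fos*. In contrast *Egr2* rose, at 12.6, 7.29 and 10.4 CPM at 0 h and 27.9, 25.2 and 23.5 CPM at 4 h (log2 fold change 1.33 ± 0.15), and *Dusp5* was at 2.14, 1.23 and 1.697 CPM at 0 h and 6.13, 5.16 and 4.75 CPM at 4 h (log2 fold change 1.64 ± 0.35). The more abundant *Egr1* was at 62.6, 53.1 and 52.2 CPM at 0 h and 62.9, 49.1 and 44.6 CPM at 4 h and was not called (adjusted p = 0.505). *Fosb* fell (-1.52 ± 0.58) but rested on few reads, and its call was lost without WT 0 h replicate 1 (-0.34, adjusted p = 0.64), WT 4 h replicate 2 (-1.38, adjusted p = 0.12), WT 4 h replicate 3 (-1.13, adjusted p = 0.20) or replicate 1 at both times (-1.02, adjusted p = 0.16).

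In the NF-kB group, 7 of 20 rose and 6 fell (15.1% and 18.0% of all genes tested), with a median of 0.11. With library totals alone 11 rose. *Rel*, the c-Rel subunit, was at 338, 364 and 361 CPM at 0 h and 517, 571 and 587 CPM at 4 h (log2 fold change 0.66 ± 0.06, adjusted p = 4.89e-09). *Bcl3* (0.60 ± 0.07), *Birc3* (0.49 ± 0.06) and *Relb* (0.44 ± 0.08) rose too. *Nfkbie*, an inhibitor, was at 194, 197 and 198 CPM at 0 h and 100.4, 109.6 and 116 CPM at 4 h (log2 fold change -0.85 ± 0.07). *Icam1*, an adhesion molecule, was at 47.3, 62.5 and 52.1 CPM at 0 h and 31.5, 28.9 and 34.3 CPM at 4 h (log2 fold change -0.77 ± 0.13). *Nfkb1* rose by 0.18 ± 0.05 and *Rela* was not called (0.06 ± 0.07, adjusted p = 0.597).

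**Figure D3:**
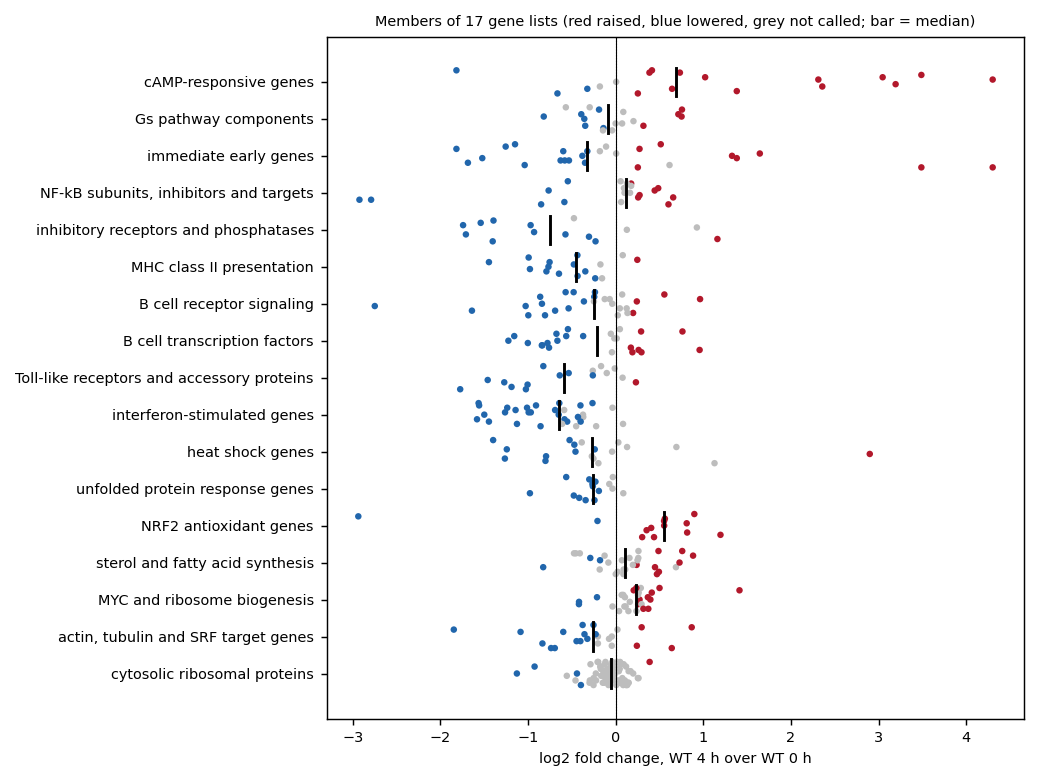
Each point is 1 tested member of a gene list, placed by its log2 fold change from WT 0 h to WT 4 h; red points rose, blue points fell, grey points were not called, and black bars mark the list medians. The cAMP-responsive and NRF2 lists have the medians farthest to the right (0.69 and 0.55), and the inhibitory receptor list has the one farthest to the left (-0.75).

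Receptors that restrain B cell receptor signals mostly fell. Of 14 such inhibitory receptors and phosphatases, 10 fell, 5 of them over 2-fold, 1 rose, and the median was -0.75. *Cd22*, a sialic acid-binding inhibitory receptor, was at 1718, 1680 and 1646 CPM in the WT 0 h libraries and 498, 515 and 528 CPM in the WT 4 h libraries (log2 fold change -1.71 ± 0.05, adjusted p = 5.53e-16). *Ptpn6*, the phosphatase SHP-1 that such receptors recruit, was at 622, 612 and 616 CPM at 0 h and 169, 186 and 197 CPM at 4 h (log2 fold change -1.74 ± 0.06). *Btla* was at 1282, 1151 and 1175 CPM at 0 h and 421, 488 and 454 CPM at 4 h (log2 fold change -1.40 ± 0.08). *Inpp5d*, the lipid phosphatase SHIP-1, was the member that rose, at 219.5, 223 and 195 CPM at 0 h and 476, 464 and 482 CPM at 4 h (log2 fold change 1.16 ± 0.06). No cultured value of these 4 genes overlapped an uncultured one. *Lair1* fell (-1.54 ± 0.49) at under 4 CPM, but not without WT 0 h replicate 2 (-1.38, adjusted p = 0.059), WT 4 h replicate 1 (-1.10, adjusted p = 0.078) or WT 4 h replicate 3 (-1.28, adjusted p = 0.093).

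Activation and costimulatory molecules moved in both directions. Of 17 tested, 5 rose and 10 fell (15.1% and 18.0% of all genes tested), with a median of -0.65. *Cd86*, a ligand for CD28 on T cells, rose, at 39.2, 27.5 and 32.7 CPM at 0 h and 183, 145 and 171 CPM at 4 h (log2 fold change 2.33 ± 0.10). *Tfrc*, the transferrin receptor, rose by 0.51 ± 0.09. *Cd69*, an early activation antigen, was at 57.1, 55.9 and 61.2 CPM at 0 h and 30.3, 21.1 and 24.8 CPM at 4 h (log2 fold change -1.20 ± 0.10). *Fas* fell by over 2-fold as well (-1.34 ± 0.25). *Cd40*, *Icosl* and *Cd38* fell by less. *Cd80*, the other CD28 ligand, was at 1.01, 2.24 and 1.52 CPM at 0 h and 1.61, 0.469 and 1.16 CPM at 4 h and was not called (adjusted p = 0.441).

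Genes of MHC class II presentation mostly fell, by a smaller amount. Of 16 tested, 12 fell, 1 rose and 3 were not called, with a median of -0.46 (-0.35 with library totals alone, 12 lowered). *Ciita*, the coactivator on which class II transcription depends, was at 558, 523 and 522 CPM in the WT 0 h libraries and 198, 195 and 195 CPM in the WT 4 h libraries (log2 fold change -1.45 ± 0.06, adjusted p = 5.76e-14). The structural genes *H2-Aa* and *H2-Ab1* were at 4906, 4525 and 5043 CPM at 0 h and 4028, 3088 and 3574 CPM at 4 h (log2 fold change -0.44 ± 0.07) and at 4237, 3872 and 4710 CPM at 0 h and 3284, 2768 and 3153 CPM at 4 h (log2 fold change -0.48 ± 0.06), so the fall of the coactivator was larger than that of the class II chains. *H2-DMb1* (-0.99 ± 0.07), *H2-Oa* (-0.98 ± 0.09) and *Rfx5* (-0.79 ± 0.09), a subunit of the factor that binds class II promoters, also fell. *Cd74*, the invariant chain and the most abundant member, was at 8095, 6517 and 7752 CPM at 0 h and 7983, 5646 and 6448 CPM at 4 h and was not called (adjusted p = 0.183). *H2-Eb2* was the member that rose (0.25 ± 0.07), but not without WT 0 h replicate 2 (0.15, adjusted p = 0.082), which left no raised member. Class II promoters hold a CRE-like element next to their RFX site, and the *H2-Aa* window carries the full CRE at position -74, printed in capitals.
*H2-Aa*, chr17:34287860-34287927, minus strand: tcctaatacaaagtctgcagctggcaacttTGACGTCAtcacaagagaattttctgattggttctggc

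Toll-like receptors and their accessory proteins fell, 10 of 16 with 6 over 2-fold, and the median was -0.59. *Cd180*, a receptor of the Toll-like family, was at 837, 736 and 794 CPM in the WT 0 h libraries and 219, 251 and 222 CPM in the WT 4 h libraries (log2 fold change -1.77 ± 0.07, adjusted p = 2.79e-14). *Tlr7* was at 104, 85.4 and 86.6 CPM at 0 h and 26.8, 26.3 and 57.3 CPM at 4 h (log2 fold change -1.27 ± 0.18). *Tlr1* was at 297, 266 and 273 CPM at 0 h and 127, 122 and 119 CPM at 4 h (log2 fold change -1.19 ± 0.06). *Tlr3* was at 16.1, 10.3 and 11.8 CPM at 0 h and 3.55, 3.597 and 6.22 CPM at 4 h (log2 fold change -1.46 ± 0.27). The adaptor *Myd88* was at 25.01, 22.6 and 23.2 CPM at 0 h and 26.8, 20.6 and 22.99 CPM at 4 h and was not called (adjusted p = 0.9596). *Irak3* was the member called as raised (0.23 ± 0.08), and it was not called without WT 0 h replicate 1 (0.18, adjusted p = 0.094), WT 4 h replicate 1 (0.20, adjusted p = 0.082), WT 4 h replicate 2 (0.21, adjusted p = 0.064) or replicate 1 at both times (0.15, adjusted p = 0.22).

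B cell receptor signaling genes fell in 14 of 27 cases (18.0% of all genes tested) and rose in 4, near the 15.1% of all genes tested, with a median of -0.25. *Prkcb*, a kinase downstream of the receptor, was at 1251, 1313 and 1261 CPM in the WT 0 h libraries and 670.3, 615 and 591 CPM in the WT 4 h libraries (log2 fold change -1.03 ± 0.06, adjusted p = 6.82e-12). *Ptprc* fell too. Of the receptor's signaling chains, *Cd79a* was at 946, 792 and 834 CPM at 0 h and 947, 743 and 814 CPM at 4 h and was not called (adjusted p = 0.716). *Cd79b* rose by 0.20 ± 0.05. *Fyn*, a Src family kinase, was at 45.2, 47.97 and 47.2 CPM at 0 h and 91.5, 86.02 and 95.7 CPM at 4 h (log2 fold change 0.96 ± 0.07). *Nfatc3* rose too (0.56 ± 0.06). With library totals alone 8 members rose and 12 fell.

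Of 24 listed transcription factors of B cells and plasma cells, 12 fell and 7 rose (18.0% and 15.1% of all genes tested), with a median of -0.21. *Bcl11a* was at 575, 574 and 568 CPM in the WT 0 h libraries and 268, 269.5 and 234 CPM in the WT 4 h libraries (log2 fold change -1.16 ± 0.06). *Spib*, an ETS factor, was at 754, 797 and 782 CPM at 0 h and 371, 393 and 399 CPM at 4 h (log2 fold change -1.003 ± 0.05). *Pax5*, the factor that fixes B cell fate, was at 402, 364 and 339 CPM at 0 h and 224, 214 and 214 CPM at 4 h (log2 fold change -0.76 ± 0.06, adjusted p = 1.59e-09). *Klf2*, which maintains quiescence and egress receptors, changed by -0.84 ± 0.07 on the log2 scale. *Ebf1*, another lineage factor, was at 306, 290.2 and 281 CPM at 0 h and 316, 308 and 284 CPM at 4 h and was not called (adjusted p = 0.575). *Pou2af1*, described above, *Irf4* (0.29 ± 0.06) and *Foxp1* (0.29 ± 0.06) rose. *Prdm1*, the plasma cell factor BLIMP-1, was at 3.83, 6.84 and 3.66 CPM at 0 h and 8.23, 11.6 and 8.02 CPM at 4 h (log2 fold change 0.96 ± 0.27), but its call was lost without WT 0 h replicate 3 (0.79, adjusted p = 0.052) or WT 4 h replicate 2 (0.77, adjusted p = 0.057).

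Surface genes that separate follicular from marginal zone B cells were listed with targets of Notch2. Of 13 tested, 7 fell, 5 of them over 2-fold, and 2 rose (18.0% and 15.1% of all genes tested fell and rose). *Cr2* and *Fcer2a* changed by -2.75 ± 0.09 and -1.54 ± 0.06 on the log2 scale, and both stayed above 100 CPM in every library. The marginal zone markers *Cd36* (-1.13 ± 0.17) and *Cd1d1* (-1.02 ± 0.12) fell as well. *Notch2* itself rose, at 968, 899.9 and 902 CPM at 0 h and 1262, 1234 and 1170 CPM at 4 h (log2 fold change 0.40 ± 0.05, adjusted p = 1.58e-06), while its target *Hes1* fell. *Hes5* (-0.47 ± 0.27, adjusted p = 0.193) was not called. *Cd9* rose (0.96 ± 0.30) at under 5 CPM, but not without WT 4 h replicate 2 (0.82, adjusted p = 0.079), which left 1 raised member.

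Receptors for positioning and adhesion were mostly lowered, 11 of 20 with 4 over 2-fold, while 4 rose (18.0% and 15.1% of all genes tested). *Ccr7*, the receptor that draws B cells to the T zone, was the clear exception at 191, 161 and 179 CPM in the WT 0 h libraries and 519, 463 and 510.1 CPM in the WT 4 h libraries (log2 fold change 1.49 ± 0.07, adjusted p = 4.99e-13). *S1pr1*, the egress receptor, was at 335, 272 and 280.4 CPM at 0 h and 412, 369.7 and 376 CPM at 4 h (log2 fold change 0.38 ± 0.07). *Cxcr5*, the receptor for follicular chemokine, was at 412, 397 and 382 CPM at 0 h and 344, 286 and 323 CPM at 4 h (log2 fold change -0.32 ± 0.06). *S1pr3* (-1.78 ± 0.25), *Rgs14* (-1.37 ± 0.10) and *Itgb7* (-1.12 ± 0.07) fell over 2-fold. *Cxcr4* was at 248, 706 and 558 CPM at 0 h and 354, 748 and 625 CPM at 4 h with its lowest values in replicate 1 at both times and was not called (adjusted p = 0.609). Without WT 0 h replicate 2, only 2 members rose.

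Among cytokine receptors and SOCS genes, 6 of 19 rose and 8 fell (15.1% and 18.0% of all genes tested), with a median of -0.06 (0.05 with library totals alone). *Il5ra* was at 103, 92.7 and 88.3 CPM in the WT 0 h libraries and 29.7, 41.9 and 40.5 CPM in the WT 4 h libraries (log2 fold change -1.33 ± 0.10), *Il27ra* changed by -0.84 ± 0.08 and *Il21r* by -0.76 ± 0.05. *Il6st*, the shared chain gp130, was at 21.7, 22.2 and 20.4 CPM at 0 h and 46.8, 40.4 and 36.6 CPM at 4 h (log2 fold change 0.94 ± 0.13). *Pim1*, a kinase induced by cytokines, rose (1.004 ± 0.14). *Il4ra*, the interleukin 4 receptor, was at 308, 304 and 308 CPM at 0 h and 183, 197 and 194 CPM at 4 h (log2 fold change -0.68 ± 0.05).

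In the BAFF and TNF receptor list, 4 of 11 fell and 1 rose (2 without WT 0 h replicate 2), beside 18.0% and 15.1% of all genes tested. *Tnfrsf13c*, the BAFF receptor that follicular B cells need to survive, was at 1794, 1915 and 1893 CPM in the WT 0 h libraries and 817, 821 and 875 CPM in the WT 4 h libraries (log2 fold change -1.16 ± 0.05, adjusted p = 1.59e-13). *Tnfrsf13b*, the related receptor TACI, was at 30.1, 28.5 and 28.9 CPM at 0 h and 14.2, 14.4 and 12.9 CPM at 4 h (log2 fold change -1.08 ± 0.11). *Traf3*, an adaptor that limits BAFF signals, fell too (-0.73 ± 0.07). *Tnfrsf1b*, a receptor for tumor necrosis factor, rose, at 31.99, 35.98 and 32.7 CPM at 0 h and 68.9, 63.2 and 79.2 CPM at 4 h (log2 fold change 1.08 ± 0.10). Every cultured value of these receptors was clear of the uncultured ones.

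The BCL2 family, whose members promote or block mitochondrial cell death, moved in both directions: 7 of 14 rose and 4 fell (15.1% and 18.0% of all genes tested). *Bcl2*, an inhibitor of death, was at 311, 231 and 287 CPM in the WT 0 h libraries and 156, 129.5 and 140.3 CPM in the WT 4 h libraries (log2 fold change -0.96 ± 0.09, adjusted p = 2.95e-08). *Mcl1*, the most abundant member, was at 1303, 1412 and 1445 CPM at 0 h and 944, 949.6 and 1013 CPM at 4 h (log2 fold change -0.52 ± 0.06). *Bcl2l11*, which encodes the activator BIM, was at 74.1, 61.5 and 73.4 CPM at 0 h and 175, 162 and 179 CPM at 4 h (log2 fold change 1.30 ± 0.08, adjusted p = 3.22e-11). *Bbc3*, which encodes PUMA, was at 1.46, 1.46 and 0.893 CPM at 0 h and 5.16, 3.13 and 2.74 CPM at 4 h (log2 fold change 1.52 ± 0.35). *Pmaip1*, which encodes NOXA, was at 19.4, 20.9 and 30.6 CPM at 0 h and 8.23, 11.7 and 11.2 CPM at 4 h (log2 fold change -1.18 ± 0.18). Activators of death therefore rose and fell within the same libraries. *Bcl2a1d* (1.31 ± 0.29) and *Bcl2a1b* (0.94 ± 0.16), inhibitors with near-identical copies, rose, with the split of reads between copies uncertain.

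Of 17 target genes of p53 tested, 7 rose and 2 fell (15.1% and 18.0% of all genes tested), and the median was 0.30. *Ei24* was at 37.96, 38.1 and 39.3 CPM at 0 h and 55.99, 55.05 and 61.6 CPM at 4 h (log2 fold change 0.58 ± 0.08). *Gadd45a* was at 19.8, 14.01 and 17.7 CPM at 0 h and 31.3, 25.02 and 27.2 CPM at 4 h (log2 fold change 0.69 ± 0.13). *Cdkn1a*, which encodes the cell cycle inhibitor p21, was at 3.38, 2.35 and 2.23 CPM at 0 h and 5.97, 4.38 and 8.54 CPM at 4 h (log2 fold change 1.28 ± 0.33), called except without WT 4 h replicate 3 (0.97, adjusted p = 0.056). *Mdm2*, which encodes the inhibitor of p53, was at 204, 230.3 and 187 CPM at 0 h and 191, 189 and 182 CPM at 4 h and was not called (adjusted p = 0.119).

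Of 19 heat shock genes, 9 fell and 1 rose (2 without WT 0 h replicate 3), beside 18.0% and 15.1% of all genes tested. *Hspa8*, the constitutive Hsp70, was at 157, 263 and 246 CPM in the WT 0 h libraries and 83.4, 80.2 and 88.7 CPM in the WT 4 h libraries (log2 fold change -1.40 ± 0.16). *Dnajb1*, a cochaperone, was at 173, 307 and 368 CPM at 0 h and 122, 111 and 121 CPM at 4 h (log2 fold change -1.26 ± 0.20). *Dnaja1* fell alike (-1.24 ± 0.18). Uncultured replicate 1 was lowest of the 3 in *Hspa8* and *Dnajb1*. The exception was *Hspa1a*, described above. Its close copy *Hspa1b* had a mean of 4.03 CPM at WT 0 h and 9.21 CPM at WT 4 h. It was not called by edgeR (1.13 ± 0.50, adjusted p = 0.087), but was without WT 0 h replicate 3 (1.84, adjusted p = 0.02). Of 15 genes of the unfolded protein response, 11 fell, all by less than 2-fold, and 6 fell with library totals alone. *Sdf2l1* was at 21.7, 26.6 and 21.5 CPM at 0 h and 11.3, 10.9 and 12.9 CPM at 4 h (log2 fold change -0.98 ± 0.14). *Hspa5*, the chaperone BiP, was at 564, 576 and 562 CPM at 0 h and 424, 402 and 448 CPM at 4 h (log2 fold change -0.42 ± 0.07).

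Antioxidant genes under the factor NRF2 rose in 11 of 13 cases, and the median was 0.55. *Gclc*, the catalytic subunit of the enzyme that starts glutathione synthesis, was at 55.9, 54.6 and 54.8 CPM in the WT 0 h libraries and 109, 101 and 98.3 CPM in the WT 4 h libraries (log2 fold change 0.90 ± 0.07, adjusted p = 4.01e-09). *Gclm*, its partner, was at 8.79, 7.06 and 6.07 CPM at 0 h and 14.7, 9.38 and 14.03 CPM at 4 h (log2 fold change 0.81 ± 0.21). *Prdx1*, a peroxiredoxin, was at 72.3, 74.9 and 77.7 CPM at 0 h and 124, 93.7 and 114 CPM at 4 h (log2 fold change 0.56 ± 0.09). *Txnrd1*, thioredoxin reductase, was at 39.5, 24.2 and 33.4 CPM at 0 h and 59.9, 40.2 and 43.2 CPM at 4 h (log2 fold change 0.55 ± 0.14). The 2 exceptions were *Hmox1*, heme oxygenase, at 7.096, 10.4 and 9.47 CPM at 0 h and 1.94, 1.56 and 0.316 CPM at 4 h (log2 fold change -2.94 ± 0.37), and *Ftl1*. *Hmox1* is also high in splenic macrophages, whose markers fell in the same libraries; the part of those cells in its fall was not tested. *Ftl1* fell by 0.21 on the log2 scale and was not called when uncultured replicate 1 or 3 or cultured replicate 2 or 3 was left out (-0.21 to -0.13, adjusted p = 0.099 to 0.24).

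The integrated stress response gave 4 raised and 2 lowered genes of 12 (15.1% and 18.0% of all genes tested). *Asns*, asparagine synthetase, was at 0.225, 2.02 and 0.983 CPM at 0 h and 4.36, 2.35 and 4.64 CPM at 4 h (log2 fold change 1.82 ± 0.45). *Slc7a5*, an amino acid transporter, was at 12.9, 11.3 and 15.7 CPM at 0 h and 33.6, 22.5 and 32.2 CPM at 4 h (log2 fold change 1.14 ± 0.16) and *Psat1* rose by 0.67 ± 0.14. *Atf4*, the factor behind this response, was at 296, 288 and 283 CPM at 0 h and 264, 238 and 259 CPM at 4 h (log2 fold change -0.19 ± 0.06), and its call was lost without WT 4 h replicate 2 (-0.14, adjusted p = 0.073), which left 1 lowered member. Of 12 tested genes that respond to glucocorticoids, 4 fell and 1 rose (18.0% and 15.1% of all genes tested). *Tsc22d3*, which encodes GILZ, was at 598, 541 and 544 CPM at 0 h and 159, 159.5 and 194 CPM at 4 h (log2 fold change -1.71 ± 0.09). *Txnip* was at 615, 568 and 612 CPM at 0 h and 321, 313 and 328 CPM at 4 h (log2 fold change -0.90 ± 0.05) and *Sgk1* changed by -0.84 ± 0.11, while *Fkbp5* was not called (0.15 ± 0.13, adjusted p = 0.398).

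Growth and metabolic lists moved by small amounts. In the MYC and ribosome biogenesis list 11 of 28 rose and 3 fell (15.1% and 18.0% of all genes tested). The median was 0.24, and 18 rose with library totals alone. *Odc1*, the first enzyme of polyamine synthesis, was at 21.5, 14.2 and 17.9 CPM in the WT 0 h libraries and 45.7, 46.6 and 50.4 CPM in the WT 4 h libraries (log2 fold change 1.41 ± 0.13, adjusted p = 2.05e-08). *Polr1b*, a subunit of RNA polymerase I, was at 24.3, 23.6 and 23.7 CPM at 0 h and 33.4, 28.6 and 33.1 CPM at 4 h (log2 fold change 0.41 ± 0.10). *Myc* itself was at 77.95, 74.99 and 68.8 CPM at 0 h and 102, 76.8 and 88.6 CPM at 4 h (log2 fold change 0.27 ± 0.09) and was not called without WT 0 h replicate 3 (0.22, adjusted p = 0.091), WT 4 h replicate 1 (0.17, adjusted p = 0.14) or replicate 1 at both times (0.21, adjusted p = 0.081). The count of raised members was 6 without WT 4 h replicate 1 and 7 without replicate 1 at both times, and that of lowered members was 1 without WT 0 h replicate 3 or WT 4 h replicate 2.

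Of 75 cytosolic ribosomal protein genes, 1 rose and 4 fell (15.1% and 18.0% of all genes tested). The median was -0.05 (0.05 with library totals alone, 8 raised and 3 lowered). The count of lowered genes was 21 without WT 4 h replicate 1 and 15 without replicate 1 at both times. That of raised genes was 3 without WT 4 h replicate 2 and 0 without WT 0 h replicate 3 or WT 4 h replicate 3. *Rpl15* was at 46.1, 32.4 and 36.6 CPM at 0 h and 21.1, 12.98 and 18.4 CPM at 4 h (log2 fold change -1.13 ± 0.17), and reads of its pseudogenes could add to or take from this value. Of 78 subunits of oxidative phosphorylation, 5 rose and 6 fell (15.1% and 18.0% of all genes tested), with a median of 0.03. With library totals alone 18 rose and 2 fell. Leaving out 1 library gave 9 raised and 1 lowered without WT 4 h replicate 2, 2 raised and 3 lowered without WT 4 h replicate 3, 4 raised and 9 lowered without WT 4 h replicate 1, and 3 and 2 lowered without WT 0 h replicates 2 and 3. Leaving out replicate 1 at both times gave 2 raised and 8 lowered.

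Sterol and fatty acid synthesis genes rose in 8 of 29 cases and fell in 3 (15.1% and 18.0% of all genes tested). Their median was 0.11. *Insig1*, a sterol-regulated inhibitor of the pathway, was at 27.6, 22.5 and 29.03 CPM in the WT 0 h libraries and 46.3, 42.2 and 45.8 CPM in the WT 4 h libraries (log2 fold change 0.76 ± 0.10, adjusted p = 6.02e-06). *Sqle* (0.49 ± 0.10), *Hmgcs1* (0.47 ± 0.08) and *Cyp51* (0.45 ± 0.09), enzymes of cholesterol synthesis, rose, while *Scd2*, a fatty acid desaturase, was at 102, 109 and 98.3 CPM at 0 h and 61, 63.03 and 51.4 CPM at 4 h (log2 fold change -0.83 ± 0.12). Without WT 4 h replicate 3, 5 members rose. Among 7 targets of the sterol sensor LXR, 1 rose (2 without WT 0 h replicate 3) and 2 fell, beside 15.1% and 18.0% of all genes tested. *Abca1* rose, at 309.6, 242 and 242 CPM at 0 h and 432, 427 and 429 CPM at 4 h (log2 fold change 0.70 ± 0.07), and *Abcg1* fell, at 96.8, 94.3 and 91.5 CPM at 0 h and 47.4, 37.4 and 39.7 CPM at 4 h (log2 fold change -1.19 ± 0.10), although both encode cholesterol exporters. The glycolysis and hypoxia list held 6 raised and 7 lowered genes of 25 (15.1% and 18.0% of all genes tested). *Vegfa*, a hypoxia target, was at 0.563, 0.224 and 0.536 CPM at 0 h and 5.002, 4.54 and 6.96 CPM at 4 h (log2 fold change 3.59 ± 0.41). *Ankrd37*, another, was at 36.4, 31.7 and 32.1 CPM at 0 h and 7.91, 8.602 and 6.01 CPM at 4 h (log2 fold change -2.18 ± 0.17), so both directions were found among targets of the same factor. *Aldoa* (0.40 ± 0.07) and *Ldha* (0.26 ± 0.07) rose. The count of lowered genes was 4 without replicate 1 at both times.

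Genes of DNA replication and mitosis gave 7 raised and 2 lowered of 30 (15.1% and 18.0% of all genes tested). *Mcm2*, a subunit of the replicative helicase, was at 33.6, 28.2 and 31.7 CPM at 0 h and 45.02, 40.5 and 41.7 CPM at 4 h (log2 fold change 0.44 ± 0.09). *Cenpe* rose by 0.75 ± 0.17. *Mki67*, a marker of cycling cells, was at 91.9, 139 and 154 CPM at 0 h and 67.8, 77.7 and 95.8 CPM at 4 h (log2 fold change -0.66 ± 0.19), and was not called without WT 0 h replicate 3 (-0.51, adjusted p = 0.074), which left 1 lowered member, as did leaving out replicate 1 at both times. In the list of cell cycle entry and quiescence, 5 of 15 rose and 4 fell (15.1% and 18.0% of all genes tested). The count of raised genes was 2 when uncultured replicate 2, uncultured replicate 3 or cultured replicate 1 was left out, and 3 without cultured replicate 3. *Cdkn2d*, an inhibitor of cyclin-dependent kinases, was at 73.4, 90.01 and 88.4 CPM at 0 h and 50.8, 41.1 and 39.8 CPM at 4 h (log2 fold change -0.94 ± 0.10). *Ccnd2*, cyclin D2, was at 49.6, 50.8 and 58.5 CPM at 0 h and 30.8, 29.6 and 31.3 CPM at 4 h (log2 fold change -0.79 ± 0.12). *Btg1* changed by -0.54 ± 0.07. Of 15 core clock genes, *Per2* fell, at 23.1, 18.7 and 20.3 CPM at 0 h and 6.29, 8.76 and 8.23 CPM at 4 h (log2 fold change -1.40 ± 0.17). *Cry1* rose (0.47 ± 0.10), while *Arntl* was not called (0.09 ± 0.09, adjusted p = 0.487). In all, 3 rose (15.1% of all genes tested), and 5 without WT 0 h replicate 1.

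Interferon-stimulated genes fell in 23 of 32 cases, 10 of them over 2-fold, and 0 rose by edgeR, by DESeq2 or at an unadjusted p under 0.05. The median was -0.65, and 20 fell with library totals alone. *Samd9l*, the most abundant of them at 0 h, was at 781, 799 and 784 CPM in the WT 0 h libraries and 218, 254 and 315 CPM in the WT 4 h libraries (log2 fold change -1.58 ± 0.09, adjusted p = 6.32e-12). *Oas2*, an antiviral enzyme, was at 32.7, 26.1 and 19.6 CPM at 0 h and 3.55, 3.75 and 16.98 CPM at 4 h (log2 fold change -1.56 ± 0.33). The cultured libraries differed from one another, with WT 4 h replicate 3 nearest to the uncultured level in both genes. Summed over the 32 genes, the level was 3546, 3411 and 3325 CPM in the WT 0 h libraries and 1601, 1685 and 2462 CPM in the WT 4 h libraries. In single genes the difference was wider: *Ifit3* was at 14.9, 11.1 and 12.2 CPM at 0 h and 3.87, 2.97 and 27.6 CPM at 4 h and was not called (adjusted p = 0.963), but fell by 1.89 (adjusted p = 1.8e-05) without WT 4 h replicate 3. Likewise *Ifit1* was at 6.08, 2.802 and 2.95 CPM at 0 h and 1.13, 0.938 and 6.22 CPM at 4 h, not called, and fell by 1.91 (adjusted p = 0.0042) without that library. Leaving out WT 4 h replicate 3 gave 29 lowered genes, and leaving out replicate 1 at both times gave 15. *Mx1* fell (-1.57 ± 0.44) but was not called without replicate 1 at both times (-0.83, adjusted p = 0.090).

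**Figure D4:**
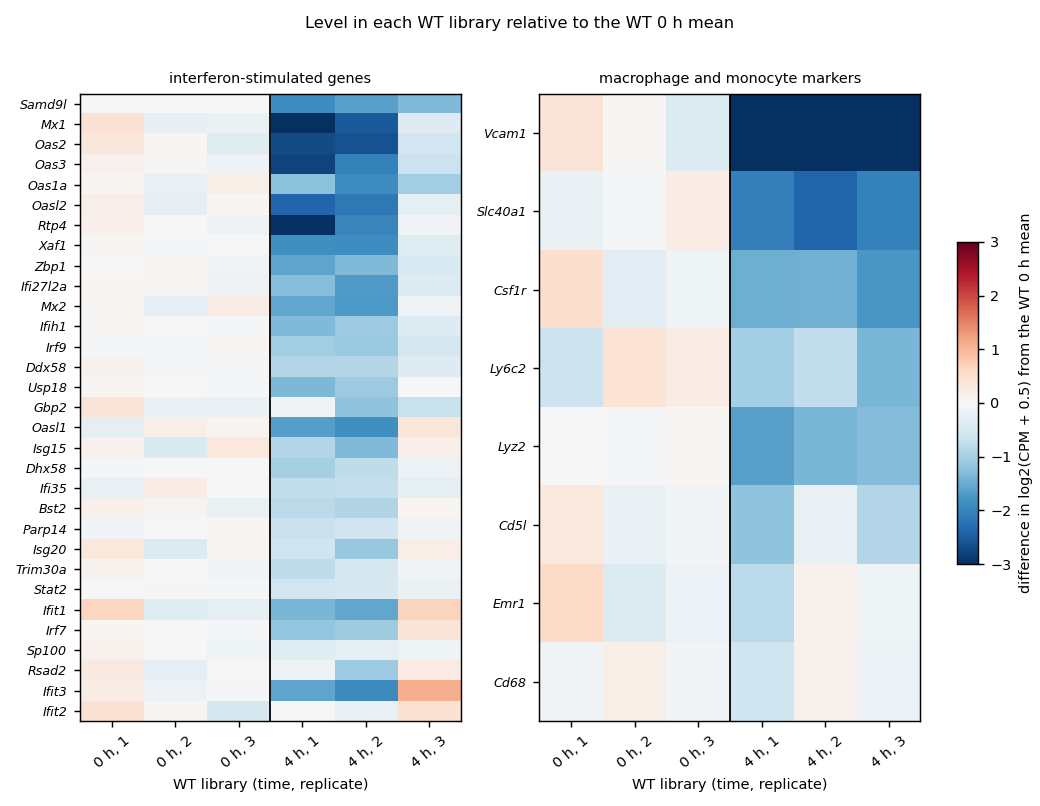
Color gives, for each gene shown (rows) and WT library (columns), the difference in log2(CPM + 0.5) from the mean of the 3 WT 0 h libraries, with blue lower, red higher and values beyond 3 drawn at the limit. Among interferon-stimulated genes the blue is deeper in WT 4 h replicates 1 and 2 than in replicate 3, whereas *Vcam1*, *Slc40a1* and *Csf1r* are blue in all 3 cultured libraries.

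Genes for actin, tubulin and targets of the factor SRF fell in 13 of 23 cases and rose in 4 (18.0% and 15.1% of all genes tested). The median was -0.25. *Vim*, vimentin, was at 286, 309 and 314 CPM in the WT 0 h libraries and 84.9, 73.5 and 92.8 CPM in the WT 4 h libraries (log2 fold change -1.85 ± 0.07, adjusted p = 2.69e-14). *Actg1* (-1.09 ± 0.20), *Flna* (-0.84 ± 0.05) and *Pfn1* (-0.74 ± 0.06) fell with *Actb*. *Srf*, the factor itself, was at 62.6, 68.9 and 67.3 CPM at 0 h and 45.99, 41.6 and 43.8 CPM at 4 h (log2 fold change -0.60 ± 0.08). *Marcks*, an actin-binding protein, was at 40.8, 36.6 and 42.8 CPM at 0 h and 74.1, 69.6 and 75.8 CPM at 4 h (log2 fold change 0.87 ± 0.09) and *Zyx* rose too (0.64 ± 0.09). Of 12 factors for mRNA decay, 4 fell and 1 rose (18.0% and 15.1% of all genes tested). *Zfp36*, which encodes tristetraprolin, was at 735, 655 and 650 CPM at 0 h and 479, 402 and 438 CPM at 4 h (log2 fold change -0.63 ± 0.07). *Zfp36l2* was at 306, 229 and 252 CPM at 0 h and 172, 170.2 and 186 CPM at 4 h (log2 fold change -0.57 ± 0.09).

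Genes listed at 1 time only could not be tested, because each table holds only genes with at least 10 counts over its 6 libraries. The 4 h table alone listed 305 genes, of which 17 had a WT mean over 1 CPM, and the 0 h table alone listed 432, of which 21 did. Leading at 4 h were *Nr4a2* and the chemokine genes *Ccl4* (44, 27 and 35 counts in the WT libraries) and *Ccl3* (40, 10 and 27 counts). *Il1r2*, a decoy receptor for interleukin 1, had 27, 20 and 33 counts. Leading at 0 h were the complement genes *C1qc* (51, 58 and 41 counts) and *C1qb* (56, 30 and 36 counts), with *Fcna* (41, 14 and 38 counts), and *C1qa* was among the first 10. These are genes of macrophages, and they stand beside the fall of the macrophage markers above.

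Culture in KO cells gave a comparison for each WT change. The difference between the genotypes' culture responses (interaction) passed an adjusted p under 0.05 in 739 of all genes tested (6.39%). Among genes raised over 2-fold in WT it passed in 78 of 266, the WT change being the larger in 77, and among genes lowered over 2-fold in 99 of 454, the WT change being the larger in 98. These genes were chosen for a large WT change, which shares its libraries with the interaction, so no weight is put on these shares. In KO cells 124 of the 266 and 332 of the 454 were DEGs in the same direction, while 3 of the raised genes fell. *Cables1* was at 0.505, 1.19 and 0.826 CPM at 0 h and 1.84, 2.27 and 2.31 CPM at 4 h in the KO libraries, and *Slamf1* at 90.2, 97.6 and 78.2 CPM at 0 h and 33.1, 37.8 and 30.6 CPM at 4 h, both between the WT levels at 4 h and the level at 0 h. For other genes with large WT changes, the KO values lay near the WT ones. *Igf1r* changed by 2.66 ± 0.18 in KO beside 2.75 ± 0.18 in WT (interaction adjusted p = 0.913), *Hes1* by -3.50 ± 0.15 beside -3.37 ± 0.15 (adjusted p = 0.835) and *Vcam1* by -4.59 ± 0.42 beside -4.74 ± 0.41 (adjusted p = 0.957). The interactions of *Igf1r*, *Hes1* and *Vcam1* were 0.09 ± 0.26, 0.13 ± 0.23 and -0.15 ± 0.83, and these errors leave room for differences between the genotypes.

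By list, the interaction passed in 11 of 18 cAMP-responsive genes, 8 of 14 inhibitory receptors and phosphatases, 7 of 16 MHC class II genes and 8 of 29 sterol and fatty acid synthesis genes. It passed in 4 of 32 interferon-stimulated genes. In unfolded protein response genes (1 of 15) and p53 target genes (1 of 17) the share was near the 6.39% of all genes tested. The lists were chosen with earlier results of these data known. The study had already named several members, such as *Crem*, *Cd22* and *Ciita*, as differing between WT and KO at 4 h. No weight is therefore put on these shares. A gene that did not pass is not shown to respond alike in both genotypes.

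**Figure D5:**
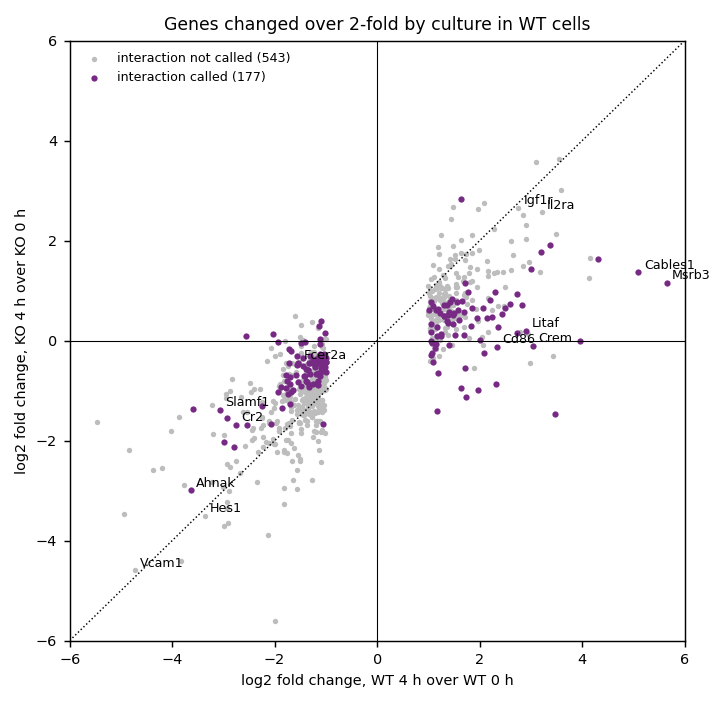
Each point is 1 of the 720 genes changed over 2-fold in WT culture, placed by its log2 fold change in WT (x) and in KO cells (y), with the dotted line marking equal change. Purple points are the 177 genes whose interaction passed the test, among them *Cd86*, *Crem* and *Litaf* near 0 in KO, and *Igf1r*, *Hes1* and *Vcam1* lie near the line.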

How the data were processed

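RNA sequencing libraries of follicular B cells were compared between WT 0 h (n = 3) and WT 4 h (n = 3); the labels give the groups, and the study gives 3 mice per genotype. Per the study's methods and labels, the authors amplified RNA (Ovation RNA-Seq System V2), sequenced 50 bp single reads, aligned them to mm10 with STAR and deposited raw counts per gene symbol from HTSeq, as 1 table per time. Versions, annotation and the strand setting of the counting are not given in the sources used here, so overlapping genes cannot be told apart. Each table lists genes with 10 or more counts in all.

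Counts were tested with edgeR 4.0.16 (R 4.3.3) by quasi-likelihood after TMM scaling and filterByExpr, in 1 fit of all 12 libraries, with Benjamini-Hochberg adjustment; the contrast was WT 4 h minus WT 0 h, and a second contrast gave the interaction with genotype. CPM is on TMM-scaled totals, and WT libraries held 6098941 to 11618787 counts, so sampling noise is largest for genes of few CPM. Replicates of a group differed by more than sampling noise. The script was tested on simulated data. DESeq2 1.42.0, other scalings, filters and left-out libraries were tried. Coordinates and promoter windows are GENCODE and RefSeq annotation of GRCm38.

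The comparison and the gene lists were chosen with earlier results of these data known. Named genes were the 15 largest rises and 15 largest falls past the threshold at 10 CPM or more in the higher group. These rises and falls also had to have all 3 WT 4 h values above, or all below, the 3 WT 0 h values. Also named were the 10 largest CPM changes each way, *Gpr174*, *Cd86*, and per list the first 3 genes and the 4 largest called changes each way. Other genes named (*Cd1d1*, *Cd38*, *Cd5l*, *Cd68*, *Cd74*, *Csf1r*, *Cyp51*, *Dusp1*, *Egr1*, *Egr2*, *Egr3*, *Emr1*, *Icosl*, *Irs2*, *Jun*, *Junb*, *Ldha*, *Ly6c2*, *Lyz2*, *Myd88*, *Pde4d*, *Plk2*, *Prdx1*, *Rela*, *Sik1*, *Slc40a1*, *Sqle*, *Txnrd1*) were chosen after their values were seen, as were those of genes listed in 1 table. A few genes that the rule names are not reported here.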

Additional observations from a re-analysis of the deposited data

Results flagged for a closer look

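The change over 4 h of culture differed between WT and KO cells, by the interaction in edgeR's quasi-likelihood test, in 32 of the genes named for the size of their WT fold or CPM change or, for *Gpr174* and *Cd86*, by identity. Genes named through a list alone are not among the 32. Each value below is the WT log2 fold change minus the KO log2 fold change, with 3 libraries in each of the 4 groups. Among genes that rose in WT, the difference was over 1 in *Msrb3* (4.49), *Cables1* (3.74), *Crem* (3.15), *Litaf* (2.71), *Fosl2* (2.68), *Cd86* (2.45), *Gm14137* (2.12), *Gfod1* (1.86), *Asph* (1.79), *Ets2* (1.56), *Stat4* (1.503), *6330403A02Rik* (1.45), *Pde3b* (1.41) and *Gdi2* (1.12). It was smaller in *Satb1* (0.82), *Stk17b* (0.81), *Ssh2* (0.59), *Fam107b* (0.40), *Neurl3* (0.28) and *Serinc3* (0.24). Among genes that fell in WT, the WT change was the lower one in *Slamf1* (-1.69), *Fcer2a* (-1.10), *Cr2* (-1.07), *Cd22* (-0.98), *Tmem154* (-0.97), *Fam55d* (-0.85), *Lta* (-0.67), *Ahnak* (-0.65), *Macf1* (-0.44), *Ptprc* (-0.29) and *Tnfrsf13c* (-0.27). For *Gpr174* the difference was -0.47, and its WT change was not called (0.09). Apart from *Gpr174* and *Cd86*, the genes were chosen for a large WT change, which shares its libraries with this difference, so the sizes are descriptions of the genes chosen and no share is drawn from them.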

How the results depend on the processing

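Over all settings no DEG of the main fit was called in the opposite direction. The number of DEGs was 3830 and lay between 3109 (WT libraries alone) and 4501 (library totals alone) in the alternatives, and leaving out 1 library gave 3240 to 3661. With library totals alone 3001 genes rose and 1500 fell, so more rose than fell, unlike the 1750 and 2080 of the main fit. Medians close to 0 changed sign there in several lists, such as the Gs pathway components (-0.09 to 0.02). With a stricter filter on low counts, 9263 genes were tested, and those over 2-fold numbered 401, of which 123 rose and 278 fell; fewer genes of low count were tested there. Without replicate 1 at both times, a setting chosen after seeing the data, 3296 genes were DEGs, 2954 of them among the 3830. A replicate block gave 3980 DEGs, 3747 of them among the 3830. Deviations of same-numbered WT libraries from their group means correlated at 0.126, 0.0718 and 0.117, and each WT library correlated best with its own number, a hint from the data only. In KO these were -0.0402, 0.145 and 0.152, and KO 0 h replicate 1 correlated best with number 2 (0.0508); the labels do not say that a number marks 1 mouse at both times, so the numbers were not taken as pairs. Among other results, 4882 kept their direction and side of the threshold, 172 lost a call, 16 gained one and 78 counts moved by over 1.5 times. Depth limits genes of a few CPM, where 1 library decided several calls named in the text.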

Other observations

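Several gene families outside the lists were examined after their values had been seen, and their counts are descriptions. Over all genes tested, 15.1% rose and 18.0% fell. Of 12 cyclic nucleotide phosphodiesterases tested, which break down cAMP or cGMP, 6 rose and 2 fell, with a median log2 fold change of 1.12. Besides the members described above, *Pde2a* was at 66.9, 51.8 and 37.4 CPM at 0 h and 234, 151 and 155 CPM at 4 h (log2 fold change 1.79 ± 0.16) and *Pde8a* at 10.1, 6.05 and 8.396 CPM at 0 h and 26.3, 25.6 and 27.8 CPM at 4 h (log2 fold change 1.70 ± 0.16). *Pde7b* was at 1.46, 1.23 and 0.268 CPM at 0 h and 6.62, 8.91 and 6.33 CPM at 4 h (log2 fold change 2.91 ± 0.46), whereas its relative *Pde7a* fell, at 295, 275 and 276 CPM at 0 h and 185, 229 and 212 CPM at 4 h (log2 fold change -0.43 ± 0.07). Of 6 diacylglycerol kinases, enzymes that end signaling by diacylglycerol, 4 rose, among them *Dgke* at 47.4, 37.1 and 43.3 CPM at 0 h and 86.5, 102 and 93.9 CPM at 4 h (log2 fold change 1.14 ± 0.09), and *Dgkd*, the most abundant, was at 469, 458 and 468 CPM at 0 h and 749.9, 731 and 699 CPM at 4 h (log2 fold change 0.64 ± 0.05). Of 8 annexins, which bind membranes in the presence of calcium, 5 fell, and *Anxa6* was at 205, 219.5 and 213 CPM at 0 h and 67.6, 65.1 and 74.2 CPM at 4 h (log2 fold change -1.62 ± 0.07). Of 8 Gimap GTPases, which are expressed in lymphocytes, 7 fell, with *Gimap4* at 670.2, 616 and 667 CPM at 0 h and 346, 341 and 378 CPM at 4 h (log2 fold change -0.87 ± 0.06), while *Gimap6* was not called (-0.02 ± 0.05, adjusted p = 0.777). Scaling by library totals alone left the median of each of these 4 families on the same side of 0.

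A few genes separated replicate 1 from the others at both times. *Ctse*, which encodes cathepsin E, was at 44.3, 540.4 and 294 CPM at 0 h and 72.3, 520.3 and 313 CPM at 4 h, and *St3gal6*, a sialyltransferase gene, at 62.9, 11.7 and 9.47 CPM at 0 h and 22.6, 4.38 and 5.696 CPM at 4 h. *Ptprv* was low in replicate 1 in the same way as *Ctse*, and *Rell1* was high. The source of this difference was not tested.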
